A study of Mus musculus with 25 samples.

Results

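Voltage-gated potassium channels are membrane pores that open on depolarisation and end or space action potentials. Their pore-forming subunits assemble as tetramers within a family: Kv1 (Kcna genes), Kv2 (Kcnb), Kv3 (Kcnc), Kv4 (Kcnd), Kv7 (Kcnq) and Kv10 to Kv12 (Kcnh). The Kv5 (Kcnf), Kv6 (Kcng), Kv8 (Kcnv) and Kv9 (Kcns) subunits form no channel alone and modify Kv2 channels, and are called silent. The subunit genes were taken by name, as all genes of the count table named Kcn followed by 1 of the letters a, b, c, d, f, g, h, q, s or v and a number. Of 40 such genes among 21720, 38 had at least 250 counts summed over the 25 libraries, and 34 of these are described here. Kcna10, with 325 counts, lay just inside this limit, and Kcnv2, with 193 counts, just outside it. The next gene inside was Kcnh8, with 1800 counts, and the other gene outside was Kcna7, with 32 counts. All 34 genes passed the filter on low counts that left 16515 genes for testing.

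RNA of the cortex was sequenced from 25 male mice aged 6 months, 5 per group, with 1 library per mouse. Combination mice received (-)-Vestitol and Salviolone at 2.5 mg/kg each, vestitol mice (-)-Vestitol alone at 5 mg/kg, and salviolone mice Salviolone alone at 5 mg/kg. Model control mice and wild type mice received vehicle, and injections in every group were intraperitoneal, once daily, for 3 months. The first 4 groups carried the transgenes APPswe and PSEN1dE9 on strain B6C3, and the wild type mice were C57BL/6J, so that genotype and strain cannot be told apart in the comparison of model control with wild type mice. In this model the mouse Prnp promoter drives the transgenes. App stood at 4262 ± 354 CPM in model control mice and 1672 ± 165 CPM in wild type mice (mean ± SD, n = 5 each), a log2 fold change of 1.35 ± 0.08 (adjusted p = 6.38e-12) by the quasi-likelihood test of edgeR, adjusted after Benjamini and Hochberg.

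Levels are given as CPM (counts per mega-count of the library after TMM scaling). Total counts ran from 59376320 to 109776852 per library. A count of 0 allows a level of up to 3 counts, or 0.0273 to 0.0505 per mega-count of the total before TMM scaling (counting error only). Levels of marker genes of other brain regions differed between some of the groups. The summed level of 15 hypothalamus marker genes was 426 to 723 CPM in combination mice, 80.5 to 139 CPM in vestitol mice, 84.0 to 99.5 CPM in salviolone mice, 83.0 to 272 CPM in model control mice and 110.4 to 634 CPM in wild type mice, with no marker at 0 in a whole group. Of these 15 markers, 11 rose and 0 fell in combination against model control mice, and 0 rose and 7 fell in model control against wild type mice. Of 10 striatum markers, 8 rose in combination against model control mice, and 0 passed the test in model control against wild type mice. Of 10 thalamus markers, 0 were called in either comparison. Of 12 hippocampus markers, 2 rose and 0 fell in combination against model control mice and 1 rose and 4 fell in model control against wild type mice. Of 11 choroid plexus markers, 1 rose and 3 fell in the first comparison and 0 were called in the second. Over all genes tested, 15.0% were called in the first and 11.6% in the second, and the 2 of 12 hippocampus markers lie near the first share. Wild type mouse 2 and model control mouse 1 stood apart in hypothalamus score, the mean log2 CPM of the 15 markers. Wild type mouse 2 was at -0.95, against 1.14 to 2.80 in the other wild type mice, and model control mouse 1 was at 1.32, against -0.84 to -0.32 in the other model control mice. Calls were made at an adjusted p under 0.05 in the edgeR test over 16515 genes, and a gene is said to rise or fall where it was called.

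The channel subunit genes spanned more than 3 orders of magnitude in length-scaled level. By the deposited FPKM (fragments scaled to gene length and library size), averaged over the 25 mice, 16 of the 34 genes reached 10 FPKM, 13 lay between 1 and 10 FPKM and 5 lay under 1 FPKM. Kcna2, an axonal Kv1 subunit, was the highest at 121 FPKM, followed by Kcnc1, a Kv3 subunit of fast-spiking neurons, at 62.2 FPKM and Kcnf1, the lone Kv5 subunit, at 57.5 FPKM. Next was Kcnh7, an ether-a-go-go-related subunit, at 48.4 FPKM. The gap from Kcna2 to Kcnc1 was larger than the SD of either gene over the mice, and in 24 of the 33 neighbouring pairs of this order, among them Kcnc1 with Kcnf1 and Kcnf1 with Kcnh7, the gap was smaller than the SD of the upper gene. Kcna6, a Kv1 subunit, varied least over the 25 mice, with a coefficient of variation of 6.37%. Kcnh8 varied most, at 106.7%, and was at 0.283 FPKM.

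**Figure D1:**
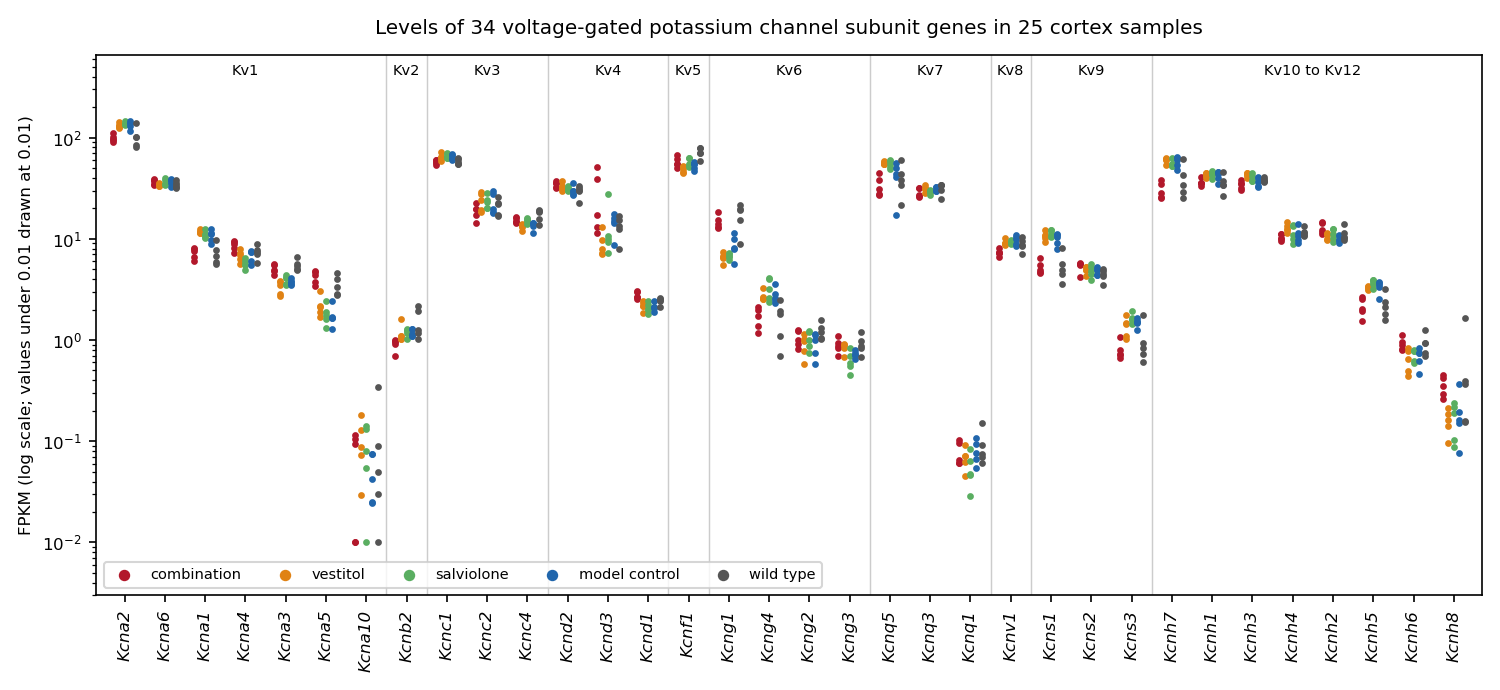
Deposited FPKM (log scale) of each of the 34 genes in each of the 25 mice, ordered by family and by mean level, with 1 point per mouse coloured by group. Kcna2 is the highest gene at a mean of 121 FPKM, and Kcnq1 and Kcna10 are the lowest, at 0.0739 and 0.0790 FPKM.

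Of the FPKM summed over the 34 genes, the 7 Kv1 genes held 27.5% and the 8 Kv10 to Kv12 genes 23.3%. The summed level was 602 ± 32.8 FPKM in combination mice, 683 ± 9.24 FPKM in vestitol mice, 694 ± 16.4 FPKM in salviolone mice, 668 ± 24.4 FPKM in model control mice and 624 ± 65.8 FPKM in wild type mice (SD, n = 5 each). These are levels, not tests, and wild type mice had the widest spread.

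Combination mice against model control mice showed the most called subunit genes of the 4 comparisons with model control or wild type mice. Of the 34 genes, 15 were called, which is 44.1%, against 15.0% of all genes tested. Of these, 9 genes fell, against a background of 7.13% of all genes, and 6 rose, against 7.83%. The genes that fell were Kcnh7, Kcns1, Kcns3, Kcng4, Kcnh5, Kcna1, Kcna2, Kcnv1 and Kcnc1, with log2 fold changes from -0.94 to -0.19. The genes that rose were Kcna5, Kcng1, Kcna3, Kcnd1, Kcnh2 and Kcna4, with log2 fold changes from 0.33 to 1.27. In 14 of the 34 genes the 5 combination mice did not overlap the 5 model control mice, against 12.6% of all genes. The median absolute log2 fold change was 0.33 over the 34 genes and 0.16 over all genes tested. Of 9 pan-neuronal marker genes, 0 rose and 4 fell in the same comparison, and of 9 cortical layer markers 1 rose and 3 fell, with median log2 fold changes of -0.24 and -0.30. Adding the hypothalamus score to the fit left 0 of the 15 genes called. That score did not overlap between these groups, and the share of all genes called in that fit is not given here. The part of the neuronal markers in the result was not tested. Without combination mice 3, 4 and 5 the called genes numbered 7, and without model control mice 4 and 5 they numbered 9. In bulk tissue, fewer cells of a type and less RNA per cell cannot be told apart.

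Model control mice against wild type mice addressed the effect of genotype together with strain. Of the 34 genes, 11 were called, which is 32.4%, against 11.6% of all genes tested. Kcns1, Kcng4, Kcnh5, Kcna1, Kcnh7 and Kcna2 rose, 6 genes against a background of 5.37%, with log2 fold changes from 0.43 to 0.90. Kcna5, Kcng1, Kcna3, Kcnf1 and Kcnc4 fell, 5 genes against 6.21%, with log2 fold changes from -1.01 to -0.33. In 3 of the 34 genes, Kcna5, Kcna3 and Kcnf1, the groups did not overlap, against 4.57% of all genes. The median absolute log2 fold change was 0.33 over the 34 genes and 0.15 over all genes. Here 5 of the 9 pan-neuronal markers rose and 1 fell, with a median log2 fold change of 0.21, and 4 of the 9 cortical layer markers rose and 1 fell, with a median of 0.33. With the hypothalamus score in the fit, 1 of the 11 genes remained called. The share of all genes called in that fit is not given here.

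Single mice stood out among these genes. In 11 of the 11 called genes, wild type mouse 2 was the wild type mouse nearest to the model control side, and in 7 of the 11, model control mouse 1 was the model control mouse nearest to the wild type side. Without wild type mouse 2, 15 genes were called, and without model control mouse 1, 13. For these and the following fits the share of all genes called is not given here. The counts therefore do not tell a change in these genes from a change over all genes. Without wild type mice 3, 4 and 5, which had the highest hypothalamus scores of their group, 0 were called with 2 wild type mice left, without model control mice 4 and 5 the number was 7, and in a fit of these 2 groups alone 4 were called. The model control mice are shared between this comparison and each treatment comparison, so that opposite directions in the 2 do not support each other.

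**Figure D2:**
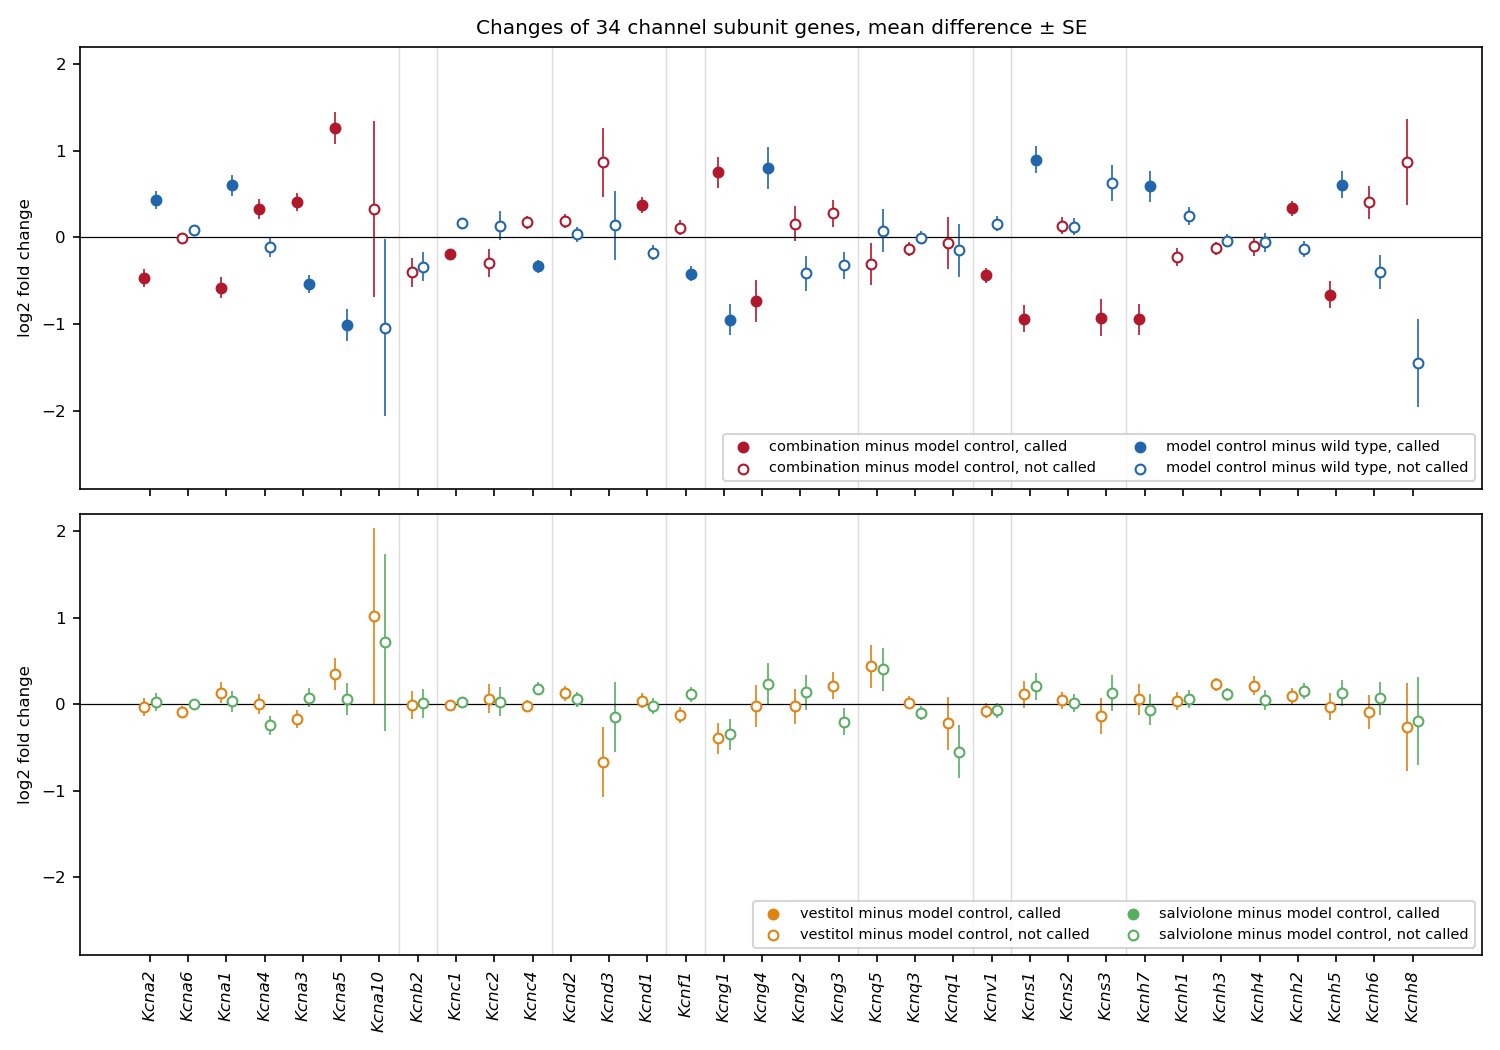
Log2 fold change ± SE of each of the 34 genes, by family, for combination minus model control beside model control minus wild type (upper panel) and vestitol and salviolone minus model control (lower panel), with filled points for genes called at an adjusted p under 0.05. The upper panel has 15 and 11 filled points and the lower panel 0.

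In the Kv1 family, genes of the same cluster differed in their changes. Kcna3 (chr3:106943485-106945386, mm39), Kcna2 (chr3:107008462-107022321) and Kcna10 (chr3:107090372-107103037) lie in this order in one cluster, and Kcna5 (chr6:126509514-126512375), Kcna1 (chr6:126617360-126621776) and Kcna6 (chr6:126685295-126717637) in another. Against model control mice, Kcna3 and Kcna5 rose and Kcna2 and Kcna1 fell in combination mice. In model control against wild type mice, a comparison that shares the model control mice, Kcna2 and Kcna1 rose and Kcna3 and Kcna5 fell. Kcna10 and Kcna6 were called in neither comparison. Of the 7 Kv1 genes, 3 rose and 2 fell in combination against model control mice, and 2 rose and 2 fell in model control against wild type mice. Among all genes tested, 7.83% rose and 7.13% fell in the first comparison, and 5.37% and 6.21% in the second.

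Kcna2, which with Kcna1 forms low-threshold channels of axons, had 468, 505, 570.5, 484 and 517 CPM in combination mice, against 601, 766, 693, 728 and 732 CPM in model control mice. Wild type mice had 524, 729, 398, 437 and 529 CPM. Combination mice lay below every model control mouse, whereas wild type mouse 2 lay within the model control range. Its log2 fold change was -0.47 ± 0.10 (adjusted p = 0.0035) in combination against model control mice and 0.43 ± 0.10 (adjusted p = 0.00952) in model control against wild type mice.

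Kcna1, a gene whose human mutations cause episodic ataxia, had 76.9, 98.0, 104, 84.5 and 101 CPM in combination mice, against 113, 161, 129, 146 and 145 CPM in model control mice. In wild type mice it was at 87.1, 126, 72.4, 72.2 and 98.3 CPM. The combination mice again lay below the model control mice, and the wild type range overlapped the model control range through mouse 2. The log2 fold changes were -0.58 ± 0.12 (adjusted p = 0.00238) and 0.60 ± 0.12 (adjusted p = 0.003) in the same 2 comparisons.

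Kcna5, a delayed rectifier best known from heart and smooth muscle, had 10.9, 8.87, 8.06, 11.2 and 10.3 CPM in combination mice, against 5.61, 4.03, 3.08, 3.88 and 3.93 CPM in model control mice. The wild type values were 6.74, 6.70, 9.15, 10.9 and 7.87 CPM. Every combination mouse and every wild type mouse lay above the highest model control mouse. The log2 fold change was 1.27 ± 0.18 (adjusted p = 1.52e-04) in combination against model control mice, the largest rise among the 34 genes, and -1.01 ± 0.18 (adjusted p = 0.00145) in model control against wild type mice.

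Kcna3, known as the potassium channel of lymphocytes and also found in neurons and microglia, had 13.3, 14.9, 15.2, 16.6 and 17.3 CPM in combination mice, against 10.8, 11.1, 11.8, 12.6 and 12.1 CPM in model control mice. Wild type mice had 15.7, 15.2, 17.0, 20.4 and 16.7 CPM. As with Kcna5, neither the combination mice nor the wild type mice overlapped the model control mice. The log2 fold changes were 0.41 ± 0.10 (adjusted p = 0.00946) and -0.54 ± 0.10 (adjusted p = 0.00218). The summed level of 9 microglia markers was 306 to 402 CPM in combination mice, 334 to 410 CPM in model control mice and 251 to 304 CPM in wild type mice. Of these 9 markers, 0 were called in combination against model control mice, and 4 rose and 0 fell in model control against wild type mice. Their part in the Kcna3 result was not tested.

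Kcna4, an inactivating Kv1 subunit, averaged 54.0 ± 5.78 CPM in combination mice and 43.0 ± 5.62 CPM in model control mice (SD, n = 5 each), with overlapping mice, and differed by 0.33 ± 0.11 (adjusted p = 0.0497) on the log2 scale. Its difference between model control and wild type mice, -0.11 ± 0.11, did not pass the test. Kcna6 averaged 156 ± 7.86 CPM in combination mice, 156 ± 9.98 CPM in model control mice and 147 ± 13.1 CPM in wild type mice and passed the test in neither comparison. Kcna10 was at 0 to 0.235 CPM in combination mice and 0.0513 to 0.154 CPM in model control mice, with combination libraries at a count of 0.

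The promoters of 3 of these Kv1 genes and of the Kv9 gene Kcns1 are printed because 2 of the 4 genes fell and 2 rose in combination mice. They are the 250 bases before the RefSeq transcription start in build GRCm38.p6, 5′ to 3′ on the gene's strand, with capitals at each GC box (GGGCGG) or E-box (CANNTG), searched on both strands, and no match overlapped another. Kcna2 (chr3:107101317-107101566, plus strand) and Kcns1 (chr2:164171114-164171363, minus strand) fell, and Kcna3 (chr3:107035912-107036161, plus strand) and Kcna5 (chr6:126535556-126535805, minus strand) rose.
Kcna2: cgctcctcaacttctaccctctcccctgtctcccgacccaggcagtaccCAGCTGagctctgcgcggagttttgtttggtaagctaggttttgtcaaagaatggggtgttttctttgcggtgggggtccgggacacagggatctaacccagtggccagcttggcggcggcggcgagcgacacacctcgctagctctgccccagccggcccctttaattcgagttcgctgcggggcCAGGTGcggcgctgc
Kcns1: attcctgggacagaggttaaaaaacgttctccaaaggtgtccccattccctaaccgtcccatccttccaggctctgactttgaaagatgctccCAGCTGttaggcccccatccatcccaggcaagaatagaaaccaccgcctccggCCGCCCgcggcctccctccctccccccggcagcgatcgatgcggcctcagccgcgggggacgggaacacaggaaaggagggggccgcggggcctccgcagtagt
Kcna3: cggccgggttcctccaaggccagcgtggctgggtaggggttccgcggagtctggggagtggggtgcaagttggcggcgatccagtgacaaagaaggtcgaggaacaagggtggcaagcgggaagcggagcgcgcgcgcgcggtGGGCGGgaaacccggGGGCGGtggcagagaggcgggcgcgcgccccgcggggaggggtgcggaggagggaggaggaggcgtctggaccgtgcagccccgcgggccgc
Kcna5: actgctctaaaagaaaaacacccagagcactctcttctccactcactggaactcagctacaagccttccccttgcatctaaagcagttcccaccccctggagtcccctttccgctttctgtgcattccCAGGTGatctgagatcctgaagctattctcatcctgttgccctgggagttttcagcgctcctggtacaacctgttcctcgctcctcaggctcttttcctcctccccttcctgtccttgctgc

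The Kcna3 promoter holds 2 GC boxes and no E-box, the Kcns1 promoter 1 GC box and 1 E-box, the Kcna2 promoter 2 E-boxes and the Kcna5 promoter 1 E-box. Their G and C content is 74.4% for Kcna3, 63.2% for Kcns1, 62.4% for Kcna2 and 53.2% for Kcna5. RefSeq promoters were matched by symbol for 24 of the 34 genes, with 29 promoters in all and a median G and C content of 62.8%, against 52.4% over 32851 promoters in the table. A GC box is in 58.6% of the 29 promoters and 32.7% of all, and an E-box in 62.1% and 66.2%. TATAAA was found in 0 of the 29 and 12.4% of all, and the cAMP response element TGACGTCA in 0 of the 29 and 1.55% of all. Such matches describe letters in a window and locate no binding.

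The 9 silent subunit genes, which modify Kv2 channels, changed in both directions. In combination against model control mice 1 of the 9 rose and 4 fell, and in model control against wild type mice 2 rose and 2 fell. The shares over all genes tested were 7.83% up and 7.13% down in the first comparison, and 5.37% and 6.21% in the second. Kcns1, a Kv9 subunit, had 15.6, 19.0, 21.9, 15.6 and 16.5 CPM in combination mice, against 26.8, 30.9, 38.7, 37.2 and 36.7 CPM in model control mice. The 5 wild type mice were at 19.2, 27.9, 11.7, 15.5 and 16.9 CPM. Kcns1 was lower in each combination mouse than in any transgenic mouse of the other groups, since vestitol mice ranged from 32.3 to 42.7 CPM and salviolone mice from 35.9 to 42.3 CPM. Kcns1 differed on the log2 scale by -0.94 ± 0.16 (adjusted p = 4.57e-04) in combination against model control mice and 0.90 ± 0.16 (adjusted p = 0.0012) in model control against wild type mice.

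Kcng1, a Kv6 subunit, moved the other way from Kcns1. It had 66.8, 55.9, 50.8, 46.3 and 46.0 CPM in combination mice, against 40.9, 20.6, 37.1, 29.6 and 29.4 CPM in model control mice. Its wild type values were 70.9, 32.4, 67.3, 77.5 and 56.1 CPM. No combination mouse overlapped the model control mice, and in wild type mouse 2 Kcng1 lay within their range. The log2 fold changes were 0.75 ± 0.18 (adjusted p = 0.00657) in combination against model control mice and -0.95 ± 0.18 (adjusted p = 0.00226) in model control against wild type mice.

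Kcnf1 was called in model control against wild type mice alone among the 4 main comparisons. It had 173, 152, 188, 162 and 182 CPM in model control mice, against 257, 191, 217, 257 and 225 CPM in wild type mice, and the groups did not overlap. This was a log2 fold change of -0.42 ± 0.09 (adjusted p = 0.00337). Combination mice had 216, 179, 199, 175 and 159 CPM, which overlapped the model control mice, and the difference of 0.12 ± 0.09 did not pass the test.

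Kcnv1, the Kv8 subunit, had 55.2, 57.6, 62.2, 49.7 and 55.2 CPM in combination mice, against 65.4, 68.7, 78.9, 80.5 and 86.0 CPM in model control mice, without overlap. The log2 fold change was -0.44 ± 0.09 (adjusted p = 0.00139), and the difference between model control and wild type mice, 0.16 ± 0.09, did not pass the test. Kcns3, a Kv9 subunit, had 4.59, 5.13, 6.93, 4.20 and 4.66 CPM in combination mice, against 8.10, 10.8, 10.1, 9.50 and 9.99 CPM in model control mice, again without overlap, a log2 fold change of -0.93 ± 0.21 (adjusted p = 0.00404). Kcng4 averaged 8.38 ± 2.10 CPM in combination mice, 14.0 ± 2.39 CPM in model control mice and 8.01 ± 3.62 CPM in wild type mice. It fell in combination against model control mice, with -0.74 ± 0.25 (adjusted p = 0.0452), and rose in model control against wild type mice, with 0.80 ± 0.25 (adjusted p = 0.0366). Kcns2, Kcng2 and Kcng3 passed the test in neither comparison. Kcnb2, a Kv2 subunit, averaged 6.95 ± 0.902 CPM in combination mice, 9.19 ± 0.745 CPM in model control mice and 11.6 ± 3.92 CPM in wild type mice, and passed the test in neither comparison.

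**Figure D3:**
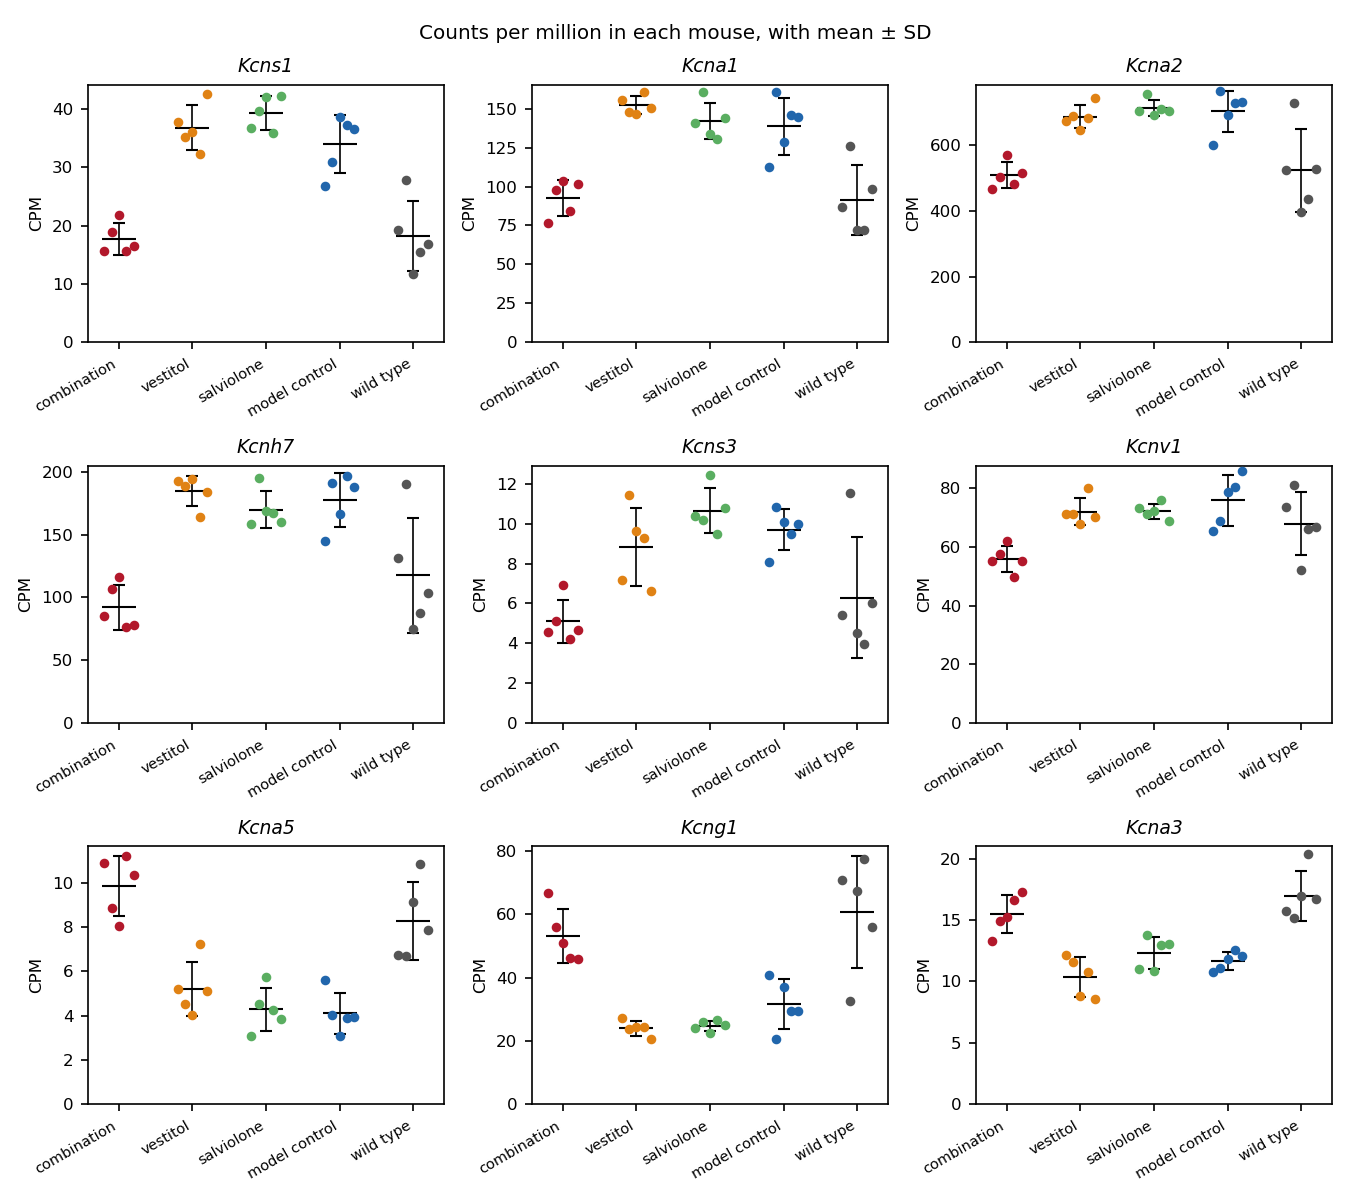
CPM of 9 genes in each mouse by group, with mean ± SD (n = 5 per group) and axes from 0. In the upper 6 genes combination mice lie below model control mice, and in Kcna5, Kcng1 and Kcna3 they lie above them.

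The fast channels of the Kv3 family serve high-frequency firing. Kcnc1 had 337, 359, 381, 357 and 372 CPM in combination mice, against 387, 438, 436, 382 and 413 CPM in model control mice, with a gap between the highest combination mouse and the lowest model control mouse far smaller than the SD of either group. The log2 fold change of -0.19 ± 0.06 (adjusted p = 0.0311) was the smallest among the called genes. Kcnc2 passed the test in neither comparison. The summed level of 9 fast-spiking and GABA neuron markers was 1381 to 1669 CPM in combination mice, 1233 to 1442 CPM in model control mice and 1108 to 1330.0 CPM in wild type mice. Single markers went both ways, as 3 of the 9 rose and 3 fell in combination against model control mice, with a median log2 fold change of 0.07, and 3 rose and 1 fell in model control against wild type mice, with a median of -0.13. Their part in the Kcnc1 result was not tested.

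Kcnc4, another Kv3 gene, fell in model control against wild type mice. It had 76.4, 63.9, 76.3, 79.2 and 80.5 CPM in model control mice, against 107, 77.7, 101, 103 and 86.2 CPM in wild type mice, and wild type mouse 2 lay within the model control range. The log2 fold change was -0.33 ± 0.07 (adjusted p = 0.00519). Combination mice had 90.2, 90.7, 82.1, 82.9 and 78.6 CPM, and their difference from model control mice, 0.17 ± 0.07, did not pass the test.

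In the Kv4 family, the A-type channels of dendrites, 1 of 3 genes was called in combination against model control mice. In model control against wild type mice 0 were called. The shares called over all genes tested were 15.0% and 11.6%. Kcnd1 had 21.8, 24.6, 22.0, 24.9 and 20.7 CPM in combination mice, against 16.6, 15.7, 20.5, 17.5 and 17.6 CPM in model control mice. The groups did not overlap, and Kcnd1 rose in combination mice, by 0.38 ± 0.09 (adjusted p = 0.00556) on the log2 scale. Kcnd2, the main Kv4 subunit by level at 31.6 FPKM, averaged 119 ± 7.82 CPM in combination mice, 105 ± 10.6 CPM in model control mice and 102 ± 15.5 CPM in wild type mice, and was not called. Kcnd3 averaged 43.9 ± 29.9 CPM in combination mice, in which mice 3 and 5 lay far above the others, and 24.0 ± 5.80 CPM in model control mice, and was not called. Against vestitol mice Kcnd3 rose in combination mice, by 1.54 ± 0.41 on the log2 scale, with overlapping mice.

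Kcnq3 and Kcnq5, Kv7 subunits of the M current that muscarinic receptors close, passed the test in neither comparison. For Kcnq3 the 95% interval of the log2 fold change in combination against model control mice was -0.30 to 0.03. Kcnq5 varied more, with an interval of -0.82 to 0.20. Against vestitol mice Kcnq5 fell in combination mice, with a log2 fold change of -0.75 ± 0.25. Kcnq1, best known from heart and epithelia, was at 0.0739 FPKM and was called in neither comparison.

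In the Kv10 to Kv12 families, 1 of 8 genes rose and 2 fell in combination against model control mice, and 2 rose and 0 fell in model control against wild type mice. Over all genes tested, 7.83% rose and 7.13% fell in the first comparison, and 5.37% and 6.21% in the second. Kcnh7, an ether-a-go-go-related subunit, had 84.9, 106, 116, 76.2 and 78.0 CPM in combination mice, against 145, 191, 166, 196 and 188 CPM in model control mice. In wild type mice Kcnh7 was at 132, 190.4, 75.2, 87.6 and 104 CPM. Combination mice did not overlap the model control mice, and wild type mouse 2 was again within the model control range. The log2 fold changes were -0.94 ± 0.18 (adjusted p = 0.00133) and 0.59 ± 0.18 (adjusted p = 0.0342). The span of Kcnh7 overlaps that of Gca at its end, as that of Kcnh1 overlaps Hhat and that of Kcnh3 overlaps Mcrs1 by 1 base. Since the strand setting of the counting is not given in the sources used here, reads of such pairs cannot be told apart there.

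Kcnh5, an ether-a-go-go subunit, averaged 33.7 ± 7.19 CPM in combination mice, 53.4 ± 7.69 CPM in model control mice and 35.0 ± 10.4 CPM in wild type mice. Its log2 fold changes were -0.66 ± 0.16 (adjusted p = 0.00566) in combination against model control mice and 0.61 ± 0.16 (adjusted p = 0.0136) in model control against wild type mice. Kcnh2, whose human counterpart carries the repolarising current lost in a form of long QT syndrome, rose in combination mice, at 54.3 ± 6.34 CPM, against 43.1 ± 2.98 CPM in model control mice, with 0.34 ± 0.09 (adjusted p = 0.0132). Kcnh1, Kcnh3, Kcnh4, Kcnh6 and Kcnh8 passed the test in neither comparison.

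Each compound alone, at 5 mg/kg, left no subunit gene called. In vestitol against model control mice 0 of the 34 genes passed, against 0% of all genes, and 2 had an unadjusted p under 0.05. In salviolone against model control mice 0 of the 34 passed, against 0.0242% of all genes, and again 2 had an unadjusted p under 0.05. By DESeq2, too, 0 of the 34 were called in each comparison. The 95% interval lay within 0.5 on either side of 0 on the log2 scale for 24 of the 34 genes with vestitol and 23 with salviolone, and for the rest a change of that size is compatible with the data.

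The genes with the smallest p in vestitol against model control mice were Kcnh3, Kcng1 and Kcna5. Kcnh3, an ether-a-go-go-like subunit of forebrain neurons, had 192, 198, 196, 175 and 189 CPM in vestitol mice, against 139.5, 147, 184, 161 and 178 CPM in model control mice. These groups overlapped and differed by 0.23 ± 0.07 (adjusted p = 0.453) on the log2 scale. Kcng1 had 27.1, 23.6, 24.2, 24.5 and 20.5 CPM in vestitol mice, where it differed from the model control mice by -0.39 ± 0.18 (adjusted p = 0.632). Kcna5 had 5.23, 4.51, 4.03, 7.23 and 5.12 CPM in vestitol mice, with a difference of 0.35 ± 0.18 (adjusted p = 0.697).

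In salviolone against model control mice the smallest p belonged to Kcnc4, Kcna4 and Kcng1. Kcnc4 had 89.7, 83.2, 86.1, 79.0 and 87.8 CPM in salviolone mice, against 76.4, 63.9, 76.3, 79.2 and 80.5 CPM in model control mice. Salviolone mouse 4 lay within the model control range, and the others above it, with a difference of 0.18 ± 0.07 (adjusted p = 0.352). Kcna4 had 35.8, 38.6, 31.1, 41.1 and 35.0 CPM in salviolone mice, against 47.1, 47.4, 38.8, 46.5 and 35.2 CPM in model control mice, a difference of -0.24 ± 0.11 (adjusted p = 0.412). Kcng1 had 24.1, 25.9, 22.6, 26.6 and 25 CPM in salviolone mice, with a difference of -0.35 ± 0.18 (adjusted p = 0.478). Vestitol against salviolone mice, both at 5 mg/kg, gave 0 called genes of the 34, against 0.684% of all genes, with 5 at an unadjusted p under 0.05. For Kcna5 the 95% interval of that difference was -0.09 to 0.66 and for Kcns1 -0.41 to 0.22, on the log2 scale.

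Combination mice also differed from the mice on a single compound, although the dose of each compound was 2.5 mg/kg in the combination and 5 mg/kg alone. Against vestitol mice, 6 genes rose, against 11.3% of all genes, and 12 fell, against 10.6%, so that 18 of 34 were called, against 21.9% of all. In 17 of the 34 genes these groups did not overlap, against 18.1% of all. Against salviolone mice, 6 rose, against 9.66%, and 10 fell, against 8.23%, so that 16 of 34 were called, against 17.9% of all, and 16 did not overlap, against 15.8%. Without combination mice 3, 4 and 5 the called genes numbered 7 against vestitol mice and 11 against salviolone mice. With the hypothalamus score in the fit, 0 of the 18 and 0 of the 16 genes remained called. That score did not overlap between combination mice and the mice on a single compound. The share of all genes called is not given here for that fit or for the fits without combination mice 3, 4 and 5. Of the 15 hypothalamus markers, 13 rose against vestitol mice and 12 against salviolone mice, and of the 10 striatum markers 6 and 9 rose. Of the 9 cortical layer markers, 0 rose and 5 fell against vestitol mice, and 1 rose and 5 fell against salviolone mice. Both comparisons use the same combination mice as the comparison with model control mice. Kcns1 had log2 fold changes of -1.05 ± 0.16 (adjusted p = 7.23e-05) against vestitol mice and -1.15 ± 0.16 (adjusted p = 2.70e-05) against salviolone mice. Kcna5 had log2 fold changes of 0.92 ± 0.18 (adjusted p = 6.94e-04) and 1.20 ± 0.18 (adjusted p = 6.73e-05), and Kcng1 of 1.15 ± 0.18 (adjusted p = 1.36e-04) and 1.10 ± 0.18 (adjusted p = 1.85e-04). Kcnh3 fell in combination mice against vestitol mice, with -0.36 ± 0.07 (adjusted p = 9.72e-04), and against salviolone mice, with -0.24 ± 0.07 (adjusted p = 0.0207), although it was not called against model control mice.

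Beta subunits and other auxiliary proteins set the gating and surface level of these channels. Of 13 tested auxiliary subunit genes, 1 rose and 1 fell in combination against model control mice, and 1 rose and 2 fell in model control against wild type mice. Over all genes tested, 15.0% were called in the first comparison and 11.6% in the second. Kcnab3, a cytoplasmic beta subunit of Kv1 channels, averaged 59.2 ± 13.6 CPM in combination mice, 122 ± 19.8 CPM in model control mice and 59.4 ± 29.1 CPM in wild type mice. Its log2 fold changes were -1.05 ± 0.22 (adjusted p = 0.00312) and 1.04 ± 0.22 (adjusted p = 0.00515). Dpp6, a transmembrane partner of Kv4 channels, averaged 378 ± 11.3 CPM in combination mice, 297 ± 18.8 CPM in model control mice and 371 ± 44.1 CPM in wild type mice. Its log2 fold changes were 0.35 ± 0.06 (adjusted p = 6.81e-04) and -0.32 ± 0.06 (adjusted p = 0.00221), the opposite signs to Kcnab3. Kcnip3, a calcium-binding Kv4 partner, fell in model control against wild type mice, with -0.29 ± 0.06 (adjusted p = 0.00254).

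Of 14 genes that anchor or cluster the channels, 1 rose and 1 fell in combination against model control mice, and 3 rose and 1 fell in model control against wild type mice. The shares called over all genes tested were 15.0% and 11.6%. Cntnap2, which holds Kv1 channels beside the node of Ranvier, rose in combination against model control mice, with 0.26 ± 0.07 (adjusted p = 0.0104), and fell in model control against wild type mice, with -0.22 ± 0.07 (adjusted p = 0.0389). Dlg1, a scaffold protein, had -0.15 ± 0.05 (adjusted p = 0.0389) and 0.22 ± 0.05 (adjusted p = 0.00574). Cntn2 and Cntnap1, axonal adhesion genes, rose in model control against wild type mice, with 0.34 ± 0.09 (adjusted p = 0.0141) and 0.22 ± 0.06 (adjusted p = 0.0168).

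Of 11 calcium- and sodium-activated potassium channel genes, 1 rose and 2 fell in combination against model control mice, and 1 rose and 1 fell in model control against wild type mice. The shares called over all genes tested were again 15.0% and 11.6%. Whether any of these 3 lists of partners and related channels differs from all genes was not tested. Kcnt2, a sodium-activated channel, averaged 18.3 ± 1.70 CPM in combination mice, 32.1 ± 4.06 CPM in model control mice and 21.3 ± 6.71 CPM in wild type mice, with -0.81 ± 0.15 (adjusted p = 0.00104) and 0.59 ± 0.15 (adjusted p = 0.0128). Kcnn3, a small-conductance calcium-activated channel, had 0.69 ± 0.15 (adjusted p = 0.0036) and -0.59 ± 0.15 (adjusted p = 0.014). Kcnma1, the large-conductance channel, fell in combination against model control mice, with -0.29 ± 0.06 (adjusted p = 0.00251). In vestitol and in salviolone against model control mice 0 genes of these 3 lists were called. The smallest p in each list, with log2 fold change ± SE, belonged to Kcne2 at -2.66 ± 1.05, Vapb at -0.08 ± 0.04 and Kcnt1 at 0.12 ± 0.06 with vestitol, and to Kcnip2 at -0.26 ± 0.11, Dlg4 at -0.16 ± 0.05 and Kcnn2 at 0.26 ± 0.10 with salviolone. The next smallest belonged to Dpp6 at -0.14 ± 0.06, Dlg4 at -0.07 ± 0.05 and Kcnma1 at 0.11 ± 0.06 with vestitol, and to Kcne3 at -2.18 ± 1.12, Cntn2 at 0.19 ± 0.09 and Kcnn1 at 0.50 ± 0.29 with salviolone. Adjusted p of these genes ran from 0.216 to 0.775.

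The subunit genes were set beside the hypothalamus score of each mouse. The score averaged 2.93 ± 0.86 in combination mice, -0.75 ± 0.50 in vestitol mice, -0.27 ± 0.31 in salviolone mice, -0.20 ± 0.87 in model control mice and 1.56 ± 1.55 in wild type mice (log2 CPM, SD, n = 5 each). Of the 2 mice that stood apart in score, wild type mouse 2, at a score of -0.95, had the highest Kcns1 and lowest Kcng1 of the wild type mice. Model control mouse 1, at 1.32, had the lowest Kcns1 and highest Kcng1 of the model control mice. Not every gene went this way: in Kcna3 this mouse was the farthest from wild type mice, at 10.8 CPM. It was nearest to the wild type side in 7 of the 11 genes called in model control against wild type mice. Dixon's test, given below, marked no gene in wild type mouse 2 and only Kcnh5 in model control mouse 1.

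**Figure D4:**
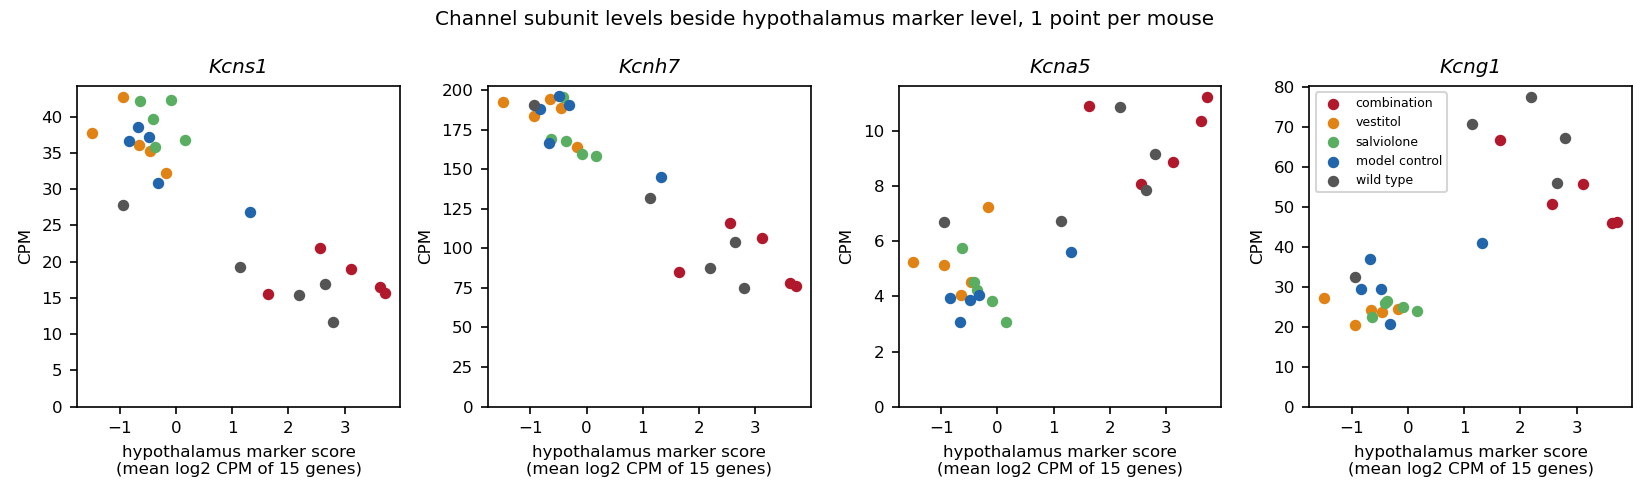
CPM of Kcns1, Kcnh7, Kcna5 and Kcng1 in each mouse against the hypothalamus marker score (mean log2 CPM of 15 genes), coloured by group. Combination mice, 4 of the 5 wild type mice and 1 model control mouse lie at scores above 1, with lower Kcns1 and Kcnh7 and higher Kcna5 and Kcng1 than most mice at lower scores.

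In an edgeR fit that also held the hypothalamus score, 0 of the 15 genes called in combination against model control mice remained called. Their median absolute log2 fold change was 0.22, against 0.58 without the score, and their median SE was 0.17, against 0.12. With the score, Kcna5 had a log2 fold change of 0.89 ± 0.26 and Kcnd1 of 0.33 ± 0.15, the 2 genes with an unadjusted p under 0.05. For Kcna5 an unadjusted p of 0.00186 became an adjusted p of 0.483. The share of all genes called in this fit is not given here, so whether the loss is particular to these genes cannot be told. Kcng1 was at 0.41 ± 0.27, Kcng4 at -0.55 ± 0.38, Kcna3 at 0.26 ± 0.17, Kcns1 at -0.24 ± 0.16, Kcnh7 at -0.17 ± 0.17 and Kcnc1 at -0.12 ± 0.09. All 15 genes had the same sign as without the score. In model control against wild type mice, 1 of the 11 genes remained called and 10 had an unadjusted p under 0.05. There the median absolute log2 fold change was 0.44, against 0.60 without the score, and the median SE 0.13, against 0.16. Scores ran from 1.64 to 3.73 in combination mice and from -0.84 to 1.32 in model control mice. They ran from -1.50 to -0.17 in vestitol mice and from -0.63 to 0.16 in salviolone mice. Combination mice thus overlapped none of these groups in score, and there the fit can hardly tell the group from the score. In model control against wild type mice, too, the group and the score share part of what they account for. The part of hypothalamus RNA in the results was not tested beyond this.

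**Figure D5:**
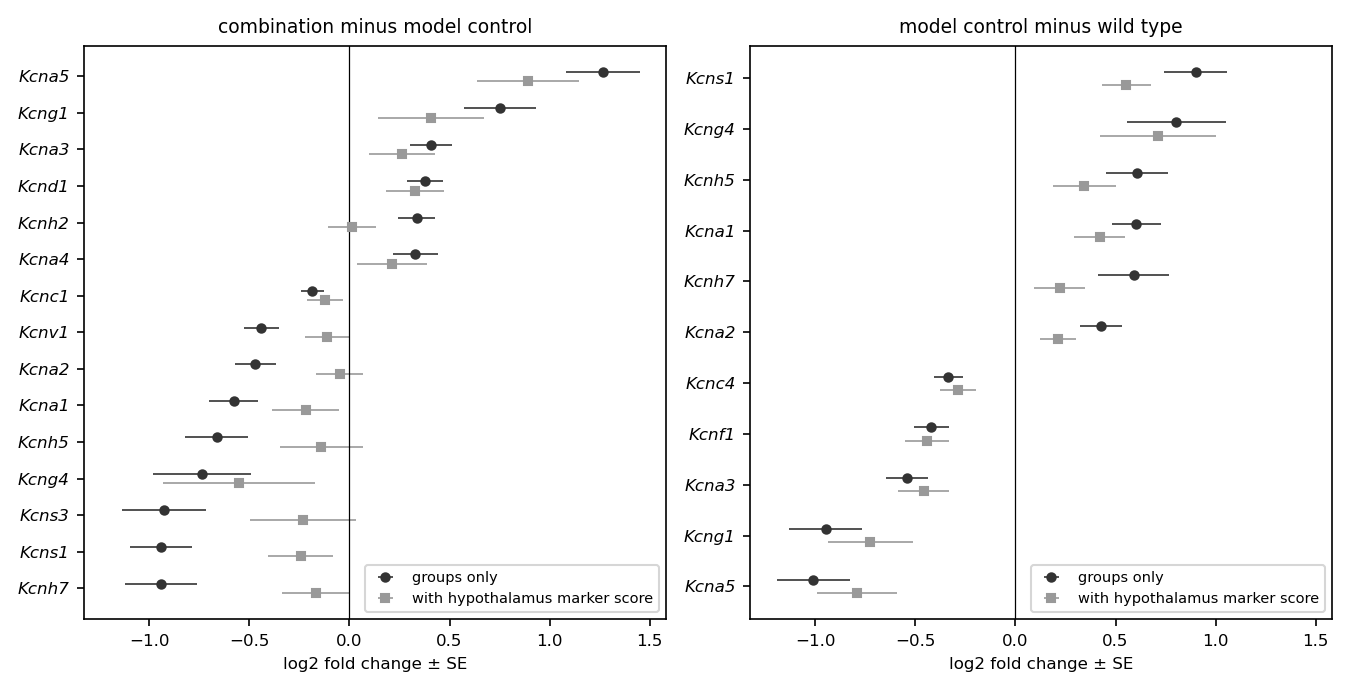
Log2 fold change ± SE of the genes called in combination minus model control (left, 15 genes) and in model control minus wild type (right, 11 genes), from the fit with groups only and from the fit with the hypothalamus marker score added. In 15 of 15 and 10 of 11 genes the value with the score is nearer to 0.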

How the data were processed

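Raw counts and FPKM per gene, as deposited by the authors, were used for 25 cortex libraries. Per the labels' protocols, a TruSeq RNA kit V2 and a SMARTER mRNA-Seq kit are named, and Trim Galore, STAR and mm39 per the submitters' processing notes. Versions, counter, strand setting and annotation were not given in the sources used here. Of values from 4 to 39 in the deposited counts, 44.3% were multiples of 4, against 25% if all these values were equally frequent. The share to be had from their actual frequencies was not computed. A repeat of the test divided each count by 4. From the counts, edgeR 4.0.16 (R 4.3.3) fitted all 25 libraries with TMM factors (0.980 to 1.04) and 1 coefficient per group, after filterByExpr (minimum count 10) left 16515 genes. The robust quasi-likelihood F test was two-sided with Benjamini-Hochberg adjustment within each of 7 comparisons. The SE is the absolute log2 fold change divided by the square root of F. Alternatives used DESeq2 1.42.0, limma 3.58.1 on log2 FPKM, other filters and scalings, a block, covariates and left-out libraries. Described with the value of each mouse were up to 8 called genes per main comparison with the smallest p, the 3 with the smallest p where fewer than 3 were called, and the 3 of highest FPKM. The genes and lists were chosen with earlier results of these data known. A further 4 genes that met the rule are not reported here.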

Additional observations from a re-analysis of the deposited data

Results flagged for a closer look

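A mouse far from the other 4 of its group, by Dixon's test at the 95% level, was found in 10 of 170 combinations of gene and group, which is 5.88%, where chance gives about 1 in 20. In model control mice, Kcnq5 was lowest in mouse 5 at 51.8 CPM, Kcnd3 in mouse 2 at 14.4 CPM, Kcnc4 in mouse 2 at 63.9 CPM and Kcnh5 in mouse 1 at 40.1 CPM. In combination mice, Kcns2 was lowest in mouse 3 at 28.4 CPM and Kcnb2 in mouse 2 at 5.38 CPM. In vestitol mice, Kcnv1 was highest in mouse 4 at 80.0 CPM, Kcng4 in mouse 5 at 16.5 CPM and Kcnb2 in mouse 4 at 12.6 CPM. In salviolone mice, Kcna10 was lowest in mouse 5 at 0 CPM, a count of 0, with the nearest mouse at 0.114 CPM. The test was run on log2 CPM after adding a small value, and the mark for this count of 0 depends on that value.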

How the results depend on the processing

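Counts of called genes are given for model control against wild type, combination against model control, combination against vestitol and combination against salviolone mice, which had 11, 15, 18 and 16. With the hypothalamus score as covariate they were 1, 0, 0 and 0, and with 4 list scores 0 in each. The cause was not tested. Shares of all genes called in the alternative fits are not given here, so changes particular to these genes cannot be told from changes over all genes. A fit of only the groups of a comparison gave 4 in model control against wild type mice, fewer samples, and lay within 1.5 times of the other 3. Without the 3 deepest combination libraries (mice 3, 4 and 5) there were 7 against model control, 7 against vestitol and 11 against salviolone mice. Without model control mice 4 and 5, which had the most choroid plexus RNA, there were 7 in model control against wild type and 9 in combination against model control mice. Without wild type mice 3, 4 and 5 there were 0. These 3 exclusions were chosen after seeing the data, and each leaves fewer samples. With a replicate block there were 13, 15, 19 and 17. Same-numbered mice correlated at -0.09 to 0.09, which shows no clear pairing by number but cannot exclude a weak one. Leaving out 1 mouse at a time gave 9 to 15, 11 to 15, 13 to 17 and 13 to 18. No filter, a stricter filter, RLE size factors, counts divided by 4, DESeq2 and limma on FPKM left the 4 counts within 1.5 times. Vestitol and salviolone against model control, and vestitol against salviolone mice, had 0 in every fit that was run. Depth limits Kcna10, with counts of 0 in several libraries.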
